A study of Homo sapiens with 30 samples.

Results

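The genes described are the estrogen receptor ESR1 and 8 genes of the luminal breast epithelium that are commonly read with it, namely FOXA1, SPDEF, MYB, PGR, GREB1, TFF1, TFF3 and AGR2. They were chosen by name, as every probe whose gene name on the array is one of these symbols, which gave 16 of the 41000 probes and 9 of the 30484 gene names. The study treated 5 breast cancer cell lines, HCC1954, MDA-MB-231, MDA-MB-361, T-47D and ZR-75-30, with recombinant human bone morphogenetic protein 7 (BMP7, 50 ng/ml) or with vehicle for 30 min and for 1, 3, 6, 12 and 24 h. Each of the 30 Agilent arrays set the vehicle-treated cells of a line and time, labeled with Cy3, against the BMP7-treated cells of the same line and time, labeled with Cy5. Each sample was a pool of 3 cultures, there was 1 array for each line and time, and the dyes were never exchanged. The spread used in the tests is therefore that between the 6 times of a line, and a dye effect that is constant for a probe stays in its log ratio. MDA-MB-231 and T-47D were kept in reduced serum, so for these lines the culture medium and the cell line cannot be told apart.

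Estrogen receptor alpha, the product of ESR1, is a nuclear receptor that binds DNA when it holds estrogen and then raises the transcription of its target genes. The forkhead protein FOXA1 opens chromatin at many of the sites the receptor uses, and SPDEF and MYB are transcription factors found in luminal cells. PGR (the progesterone receptor), GREB1 and TFF1 are classical targets of the receptor, and TFF1 and TFF3 encode small secreted trefoil peptides of mucosal surfaces. AGR2 encodes a protein disulfide isomerase of the endoplasmic reticulum. BMP7 acts through serine/threonine kinase receptors and SMAD proteins, and the ID genes are its best known direct targets.

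Between 55.5% and 69.8% of the probes of an array were well above background in the vehicle channel, as the scanner software judged it. With 13 slides, the scans fell into 2 batches by scan time, the second of them with 6 arrays, and the lowest correlation between the log ratios of any 2 arrays was -0.41. All 5 epithelial markers read (EPCAM, CDH1, KRT8, KRT18 and KRT19) were expressed in every line, with summed levels between 15.7 and 17.1 (log2) in MDA-MB-231 and between 17.6 and 19.1 in the other lines. The 4 mesenchymal markers (VIM, CDH2, FN1 and ZEB1) were all expressed in MDA-MB-231, where VIM averaged 16.85. Each other line expressed 2 or 3 of them, and VIM averaged 14.35 in HCC1954. The 4 basal markers (KRT5, KRT14, KRT17 and TP63) were all expressed in HCC1954, and each other line expressed 2 or 3 of them. PTPRC, which defines leukocytes, was above background on no array. In the mean over 3 to 24 h minus that over 30 min and 1 h, averaged over the lines, ID1 rose by 0.85 ± 0.17 (log2, SE; adjusted p = 0.010553 in limma), ID2 by 0.95 ± 0.12 (adjusted p = 0.000842494) and ID3 by 0.77 ± 0.12 (adjusted p = 0.00304086), each in 5 of 5 lines.

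The first comparison asks how much of each gene the vehicle-treated cells of the 5 lines held. Levels are log2 Cy3 signals, normalized between arrays, of the brightest probe of a gene, and a gene was called expressed in a line where that probe was well above background on at least 4 of the 6 arrays. By this rule 38 of the gene and line combinations were expressed, and SPDEF, MYB, TFF1, TFF3 and AGR2 were expressed in all 5 lines. The samples are whole cultures, so fewer cells that express a gene and less RNA per cell cannot be told apart. MDA-MB-361 and T-47D expressed all 9 genes, and ZR-75-30 all but PGR. HCC1954 expressed ESR1 and FOXA1 without GREB1 or PGR, and MDA-MB-231 expressed none of ESR1, FOXA1, PGR and GREB1 by the brightest probe. Of the 90 tests of a gene between a pair of lines, 81 passed the threshold (limma, adjusted p under 0.05), beside 46.6% of the tests over all probes and pairs. Of the 86 tests in which a line of the pair expressed the gene, 80 passed. The difference between the highest and the lowest line mean had a median of 9.25 (log2) over the 9 genes, from 6.12 to 11.35, and a median of 1.81 over the 29849 probes expressed in a line, of which 94.8% lay below the lowest of the 9. The genes were picked with such levels known, so the last numbers are a description.

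**Figure D1:**
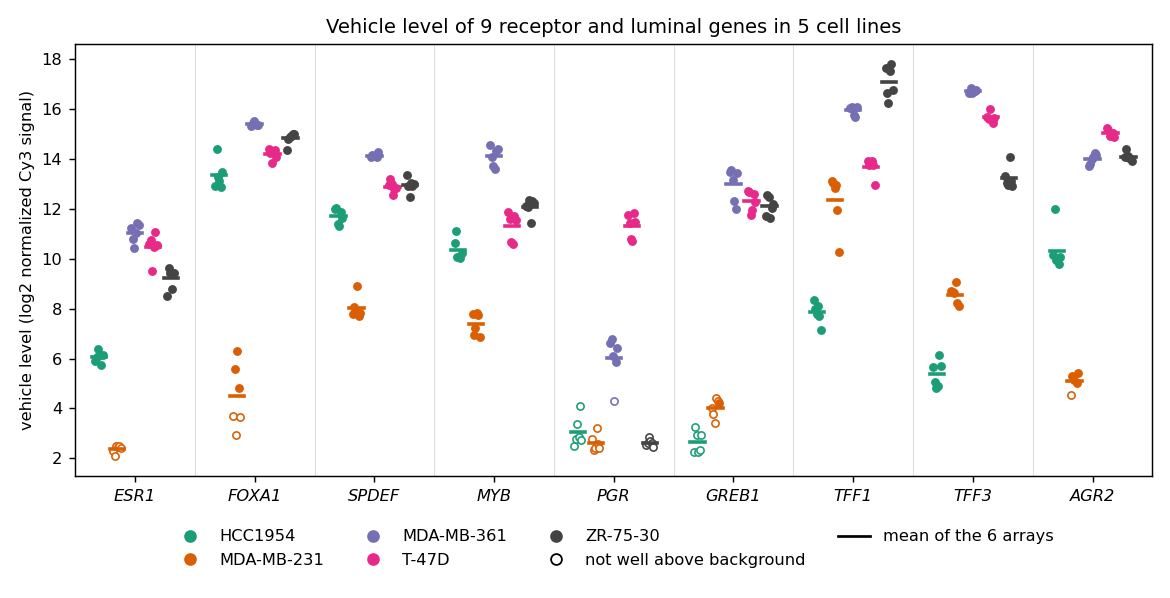
Vehicle level (log2 normalized Cy3 signal, y axis) of each gene (x axis) in the 5 cell lines; points are the 6 arrays of a line, open points are not well above background, and bars are line means. ESR1 lies between 8.52 and 11.42 in MDA-MB-361, T-47D and ZR-75-30, between 5.73 and 6.38 in HCC1954 and at or below 2.49 in MDA-MB-231; signals of different genes come from different probes and are not comparable with each other.

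The ESR1 level was highest in MDA-MB-361, from 10.45 over a median of 11.12 to 11.42, with a mean of 11.04 ± 0.37 (log2, SD over the 6 times). In T-47D it ran from 9.504 over 10.56 to 11.07 (mean 10.48 ± 0.53) and in ZR-75-30 from 8.52 over 9.42 to 9.62 (mean 9.21 ± 0.44). HCC1954 held far less, from 5.73 over 6.10 to 6.38 (mean 6.06 ± 0.22), yet its probe was well above background on all 6 arrays. MDA-MB-231 had it above background on 0 of 6 arrays, at 2.08 to 2.49, so a bound takes the place of a fold. The level in MDA-MB-361 was at least 105-fold higher (adjusted p = 4.28702e-24) and that in HCC1954 at least 3.32-fold higher (adjusted p = 5.51335e-15). Each "at least" value sets the bright line against the lowest signal among all probes well above background on each array of the dim line, averaged over its arrays. By the brightest probe, the values of HCC1954 and MDA-MB-231 overlapped with no other line. Those of MDA-MB-361 and T-47D overlapped and differed by 0.55 ± 0.21 (log2, SE; adjusted p = 0.0313343), and those of T-47D and ZR-75-30 overlapped and differed by 1.28 ± 0.21 (adjusted p = 1.00161e-05).

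ESR1 had 2 further probes, and they gave another order of the lines. The brightest probe (hg18 chr6:152465601-152465660) and the second (chr6:152170741-152170800) share a transcript annotation, and the second was highest in T-47D at 7.46 ± 0.42 and gave 6.65 ± 0.21 in MDA-MB-361, 5.64 ± 0.40 in ZR-75-30, 5.45 ± 0.30 in HCC1954 and 5.26 ± 0.24 in MDA-MB-231, where it was well above background on 5 of 6 arrays although the brightest was on none. The third, annotated to another transcript with a span of chr6:152064775-152170671, was well above background on all 6 arrays of ZR-75-30, between 5.11 and 5.81, and on none of the other 24. So the order of MDA-MB-361 and T-47D for ESR1 rests on the brightest probe, and with the mean of all probes their difference was -0.015 (adjusted p = 0.918703). By the second probe, unlike the brightest, the ranges of ZR-75-30 (5.11 to 6.16), HCC1954 (5.09 to 5.96) and MDA-MB-231 (4.98 to 5.70) overlapped.

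FOXA1 was expressed in the same lines as ESR1, at 15.40 ± 0.07 in MDA-MB-361, 14.82 ± 0.24 in ZR-75-30, 14.20 ± 0.21 in T-47D and 13.34 ± 0.56 in HCC1954, and its lowest single value in these lines was 12.89. Neighbours in this order did not differ past the threshold (adjusted p = 0.21406, 0.162725 and 0.0519831), and with time as a block T-47D and HCC1954 did (adjusted p = 0.0435586). MDA-MB-231 had 3 of 6 arrays with the probe above background, with values from 2.95 to 6.32, and its mean of 4.50 was 8.83 ± 0.36 (log2, SE) below that of HCC1954 (adjusted p = 1.46112e-18). The second FOXA1 probe, with 10 spots on each array, was well above background on none of the MDA-MB-231 arrays.

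SPDEF, an ETS factor of luminal and secretory cells, was at 14.13 ± 0.07 in MDA-MB-361 and at 8.01 ± 0.44 in MDA-MB-231. Between them lay ZR-75-30 at 12.95 ± 0.29, T-47D at 12.88 ± 0.22 and HCC1954 at 11.70 ± 0.31. ZR-75-30 and T-47D did not differ past the threshold (adjusted p = 0.792744), and every other pair of neighbours did. MYB, which the receptor is known to sustain in luminal cells, stood at 14.12 ± 0.39 in MDA-MB-361, 12.09 ± 0.34 in ZR-75-30, 11.33 ± 0.56 in T-47D, 10.36 ± 0.43 in HCC1954 and 7.39 ± 0.44 in MDA-MB-231, and all 4 pairs of neighbours differed (the weakest, ZR-75-30 against T-47D, by 0.76 ± 0.25, adjusted p = 0.01221). T-47D thus stood above ZR-75-30 for ESR1 and below it for MYB, both past the threshold.

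Of the receptor targets, PGR was the most restricted. In T-47D it ran from 10.69 over a median of 11.44 to 11.84 (mean 11.33 ± 0.49). In MDA-MB-361 it ran from 4.32 over 6.26 to 6.80 (mean 6.02 ± 0.90), and 1 of the 6 arrays was not well above background, and every T-47D array lay above every MDA-MB-361 array. It was on no array above background in HCC1954, MDA-MB-231 or ZR-75-30, so T-47D exceeded these lines at least 136-fold, 128-fold and 110-fold (adjusted p = 1.94e-19, 4.0765e-20 and 1.17598e-19). ZR-75-30 therefore expressed ESR1 and GREB1 without measurable PGR. GREB1, a chromatin-bound cofactor of the receptor and one of its targets, ran from 12.00 over 13.28 to 13.57 in MDA-MB-361 (mean 12.98 ± 0.67), from 11.73 over 12.44 to 12.70 in T-47D (12.32 ± 0.40) and from 11.63 over 12.10 to 12.56 in ZR-75-30 (12.10 ± 0.38). The ranges of these 3 lines overlapped, and T-47D and ZR-75-30 did not differ past the threshold (adjusted p = 0.525793). In HCC1954 the brightest GREB1 probe was above background on no array, although the brightest ESR1 probe was on all 6, and by this probe MDA-MB-361 exceeded HCC1954 at least 428-fold (adjusted p = 1.79469e-23). A second GREB1 probe, for another transcript, was above background on 2 of 6 arrays in HCC1954 and was highest in T-47D, at 7.08 ± 0.57 against 5.52 ± 0.37 in MDA-MB-361, and with the mean of both probes MDA-MB-361 minus T-47D was -0.45, against 0.66 ± 0.26 (adjusted p = 0.0390074) with the brightest.

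The trefoil genes were measured in all 5 lines, MDA-MB-231 included. TFF1 ran from 16.23 over 17.13 to 17.81 in ZR-75-30, from 15.69 over 16.05 to 16.09 in MDA-MB-361 and from 12.94 over 13.82 to 13.90 in T-47D. It ran from 10.29 over 12.88 to 13.12 in MDA-MB-231 and from 7.13 over 7.90 to 8.34 in HCC1954, and of neighbouring lines T-47D and MDA-MB-231 alone overlapped. MDA-MB-231 held 4.51 ± 0.35 (log2, SE) more TFF1 than HCC1954 (adjusted p = 4.83037e-12). The second TFF1 probe also gave a higher level in MDA-MB-231, 10.83 ± 0.81, than in HCC1954, 6.95 ± 0.37. TFF3 ran from 16.64 to 16.85 in MDA-MB-361 (mean 16.72 ± 0.08), from 15.44 to 15.98 in T-47D (15.66 ± 0.18) and from 12.91 to 14.06 in ZR-75-30 (13.22 ± 0.44). In MDA-MB-231 it was at 8.56 ± 0.35 and in HCC1954 at 5.37 ± 0.54. No line overlapped with the next, and each differed from the next (the largest adjusted p was 8.0072e-05). For TFF1 and TFF3 the lowest line was HCC1954, while for ESR1, FOXA1, SPDEF, MYB and AGR2 it was MDA-MB-231. AGR2 was at 15.04 ± 0.15 in T-47D, 14.09 ± 0.16 in ZR-75-30, 13.99 ± 0.20 in MDA-MB-361, 10.32 ± 0.83 in HCC1954 and, over the 5 arrays that measured it, 5.09 ± 0.34 in MDA-MB-231. ZR-75-30 and MDA-MB-361 did not differ past the threshold (adjusted p = 0.788392).

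The MDA-MB-231 level of TFF1 was not steady over the course. In the vehicle channel it was, from 30 min to 24 h, 13.12, 13.03, 12.83, 12.93, 11.94 and 10.29. In the BMP7 channel of the same arrays it was 13.13, 12.96, 12.82, 12.94, 11.70 and 10.89. The 12 h and 24 h arrays were thus the lowest in both channels. The second probe gave 11.44, 11.20, 11.13, 11.33, 10.62 and 9.28 in the vehicle channel, with the same arrays lowest. With 1 array per time, this course has no replicate check. The 24 h array was also the lowest of the 6 vehicle arrays in T-47D, at 12.94 against 13.73 to 13.90 on the others, and in HCC1954, at 7.13 against 7.69 to 8.34. In MDA-MB-361 the 24 h array was instead the highest, at 16.09, and in ZR-75-30 it was at 16.77, with the lowest value, 16.23, at 3 h. Over all lines the late minus early vehicle level of TFF1 was -0.39 ± 0.23 (SE, adjusted p = 0.80777), and 0 of the 9 genes passed the threshold in this comparison (1 of them, MYB, at an unadjusted p under 0.05), beside 0.00976% of all probes.

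**Figure D2:**
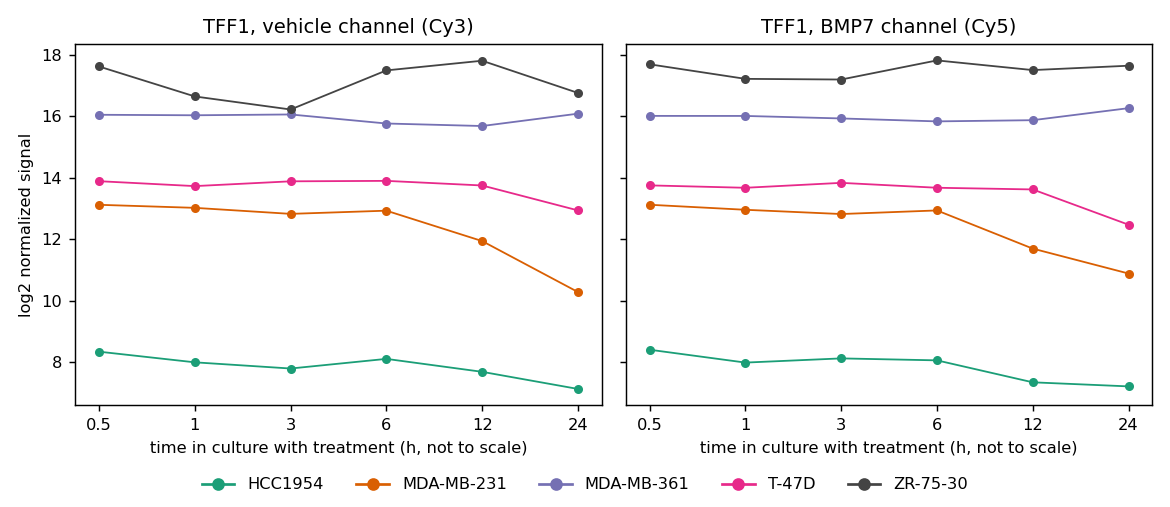
TFF1 level (log2 normalized signal, y axis) in the vehicle channel (left) and the BMP7 channel (right) against the time of treatment (h, evenly spaced steps), 1 array per point and 1 colour per line. In MDA-MB-231 the level runs from 13.12 at 30 min to 10.29 at 24 h in the vehicle channel and from 13.13 to 10.89 in the BMP7 channel.

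Among vehicle arrays, that of HCC1954 at 1 h stood apart. AGR2 was 12.00 there and between 9.78 and 10.14 on the other 5 arrays of the line, FOXA1 was 14.38 there and between 12.89 and 13.49 on the others, and MYB was 11.10 there and between 10.04 and 10.64 on the others. The summed level of the luminal markers GATA3, KRT8, KRT18 and XBP1 in this line lay between 17.4 and 17.9 over the 6 arrays. The part of that array in the levels was not tested, but without it 82 of the 90 tests passed in place of 81.

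By their profile over the 5 lines, the genes nearest to ESR1 were C10orf116, RHOH, SLC24A3, PCDHA11 and PCDHB2, out of 15874 genes. Likeness was the root mean square difference, in log2, of the 5 line means after each gene was centred on its own mean, and it was 0.27 for C10orf116, an adipose-associated gene, and 0.57, 0.60, 0.66 and 0.68 for the others. RHOH encodes a small GTPase without GTPase activity, and SLC24A3 a sodium, potassium and calcium exchanger. PCDHA11 and PCDHB2 belong to protocadherin clusters with near-identical members, so their identity is uncertain. With their brightest probes, AGR2 ranked 19, SPDEF 94, MYB 121, FOXA1 273, GREB1 681, PGR 3355 and TFF1 4519 by this measure. Only 5 line means enter it, so many genes lie close together. The brightest ESR1 probe was above background on no MDA-MB-231 array, so its level there is a background reading, and the differences and ranks, which use that level, are a description.

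**Figure D3:**
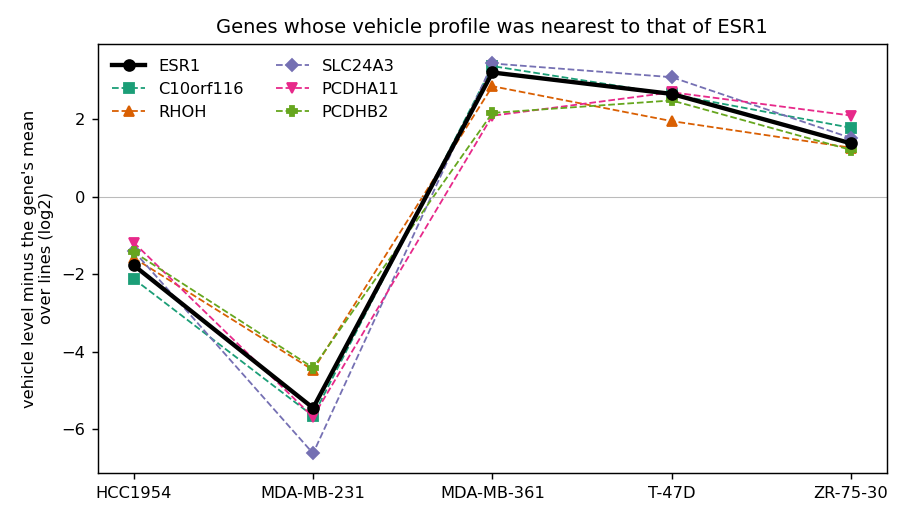
Line means of the vehicle level, each gene centred on its own mean over the 5 lines (log2, y axis), for ESR1 (thick black line) and the 5 genes nearest to it. All 6 genes were lowest in MDA-MB-231 and second lowest in HCC1954, with root mean square differences from ESR1 of 0.27 to 0.68.

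The lists of related genes were read over the lines in the same way. Of 22 luminal identity genes, 17 had their lowest level in MDA-MB-231, 7 their highest in T-47D and 7 in ZR-75-30, and 22 of 22 were expressed in ZR-75-30, T-47D and MDA-MB-361 alike, against 20 in HCC1954 and 16 in MDA-MB-231. Of 30 estrogen-regulated genes, 15 were lowest in MDA-MB-231 and 14 highest in T-47D, with between 25 and 28 expressed in each line. The matching shares of all probes are not given here, so the counts for both lists are a description.

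Promoter sequence (GRCh38.p14, RefSeq starts, 250 bases before to 50 after each start) was at hand for 6 of the genes, ESR1, FOXA1, SPDEF, MYB, PGR and AGR2, in 13 windows, and is not given here for GREB1, TFF1 and TFF3. The motifs searched on both strands were the estrogen response element, spelled GGTCA, 3 bases of any kind and TGACC (0.057% of all 35116 windows), the receptor's shorter AGGTCA (13.8%), the forkhead motif TGTTTAC (3.42%), the SMAD GC element GGCGCC (19.2%) and the SMAD palindrome GTCTAGAC (0.202%). The first, second and last of these were in none of the 13 windows. The matches are shown because they are all that these letters give in the windows of the receptor and its partner factors; capitals mark the motif, and each window lies 5′ to 3′ on the strand of the gene. The forkhead motif was in the MYB window, starting 14 bases before the start (chr6:135181284-135181310), and the GC element was in those of MYB (chr6:135181228-135181253), SPDEF (chr6:34556548-34556573) and FOXA1 (chr14:37595200-37595222). A match is a stretch of letters only, and the array gives no reading of binding.
MYB forkhead: atggcatctcTGTTTACagagtttaca
MYB GC element: gcactgcaggGGCGCCagatttggcg
SPDEF GC element: acgtatctctGGCGCCttgcacgtaa
FOXA1 GC element: ggcgctccccGGCGCCgcgctcc

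The second comparison asks whether BMP7 moved these genes in the lines that express them, by the log2 ratio of BMP7 to vehicle, averaged over the 6 times of a line. TFF3 was lower after BMP7 in T-47D and ZR-75-30, FOXA1 was lower in ZR-75-30 and TFF1 was higher in ZR-75-30. These were 4 of the 38 gene and line combinations (10.5%), beside 7.71% of all probes over the 5 lines and 10.2% of the probes expressed in the line, so the share was near that background. The TFF3 call in T-47D stood beside 6.14% of all probes called lower there, the FOXA1 and TFF3 calls in ZR-75-30 beside 5.07% lower, and the TFF1 call beside 4.76% higher. At an unadjusted p under 0.05 there were 13. No combination was called in HCC1954, MDA-MB-231 or MDA-MB-361, and ESR1 itself was called in none of its 4 lines. Of the 227 single values of the 9 genes, 1 reached 2-fold, MYB in MDA-MB-231 at 12 h (-1.42), beside 1.02% of the values of all expressed probes, and the median size of the log ratio was 0.154 in the 9 genes and 0.160 in all expressed probes.

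**Figure D4:**
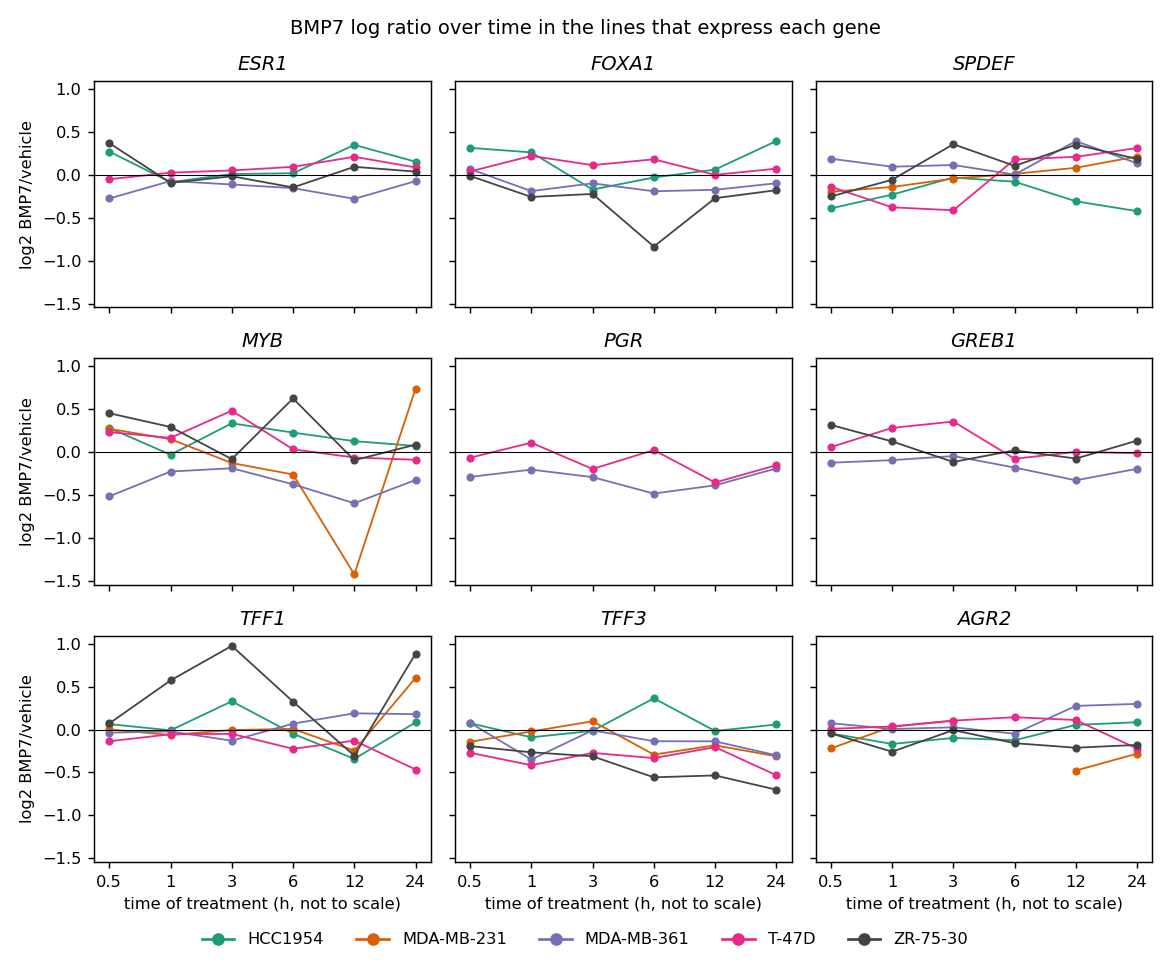
Log2 ratio of BMP7 to vehicle (y axis) at each time (h, evenly spaced steps) for the 9 genes, in the lines that express each gene; every point is 1 array. TFF3 in ZR-75-30 runs from -0.19 at 30 min to -0.70 at 24 h, and FOXA1 in ZR-75-30 has its lowest value, -0.83, at 6 h.

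The TFF3 log ratio in ZR-75-30 was, from 30 min to 24 h, -0.19, -0.26, -0.31, -0.56, -0.53 and -0.70. Every array was below 0, and by the mean of -0.43 ± 0.07 (SE, n = 6; adjusted p = 0.00018, limma) TFF3 fell by 25.6%. In T-47D the values were -0.27, -0.42, -0.27, -0.33, -0.20 and -0.53, again below 0 on 6 of 6 arrays, and by the mean of -0.34 ± 0.07 (adjusted p = 0.00128) TFF3 fell by 20.9%. The T-47D mean was -0.343 over 30 min and 1 h and -0.335 over 3 to 24 h. Between HCC1954 and T-47D, where a constant dye effect cancels, the difference of 0.40 ± 0.09 missed the threshold (limma, adjusted p = 0.0514). In MDA-MB-361 the mean was -0.14 ± 0.07 and below 0 on 5 of 6 arrays (adjusted p = 0.168). MDA-MB-231 gave the same mean, -0.14 ± 0.07 (adjusted p = 0.337), and HCC1954, where TFF3 was dimmest, 0.06 ± 0.07 (adjusted p = 0.711). In the first scan batch alone the mean was -0.45 in ZR-75-30 (adjusted p = 0.003028) and -0.35 in T-47D (adjusted p = 0.003793), and with scan batch as a term -0.43 and -0.34. Both calls were lost with normexp background correction and median scaling (-0.43, adjusted p = 0.326394, and -0.12, adjusted p = 0.999957), and with the mean of all probes the ZR-75-30 value was -0.23 (adjusted p = 0.0227282).

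The second TFF3 probe lies next to the brightest (hg18 chr21:42605215-42605251 and chr21:42605306-42605365). It was below 0 on 6 of 6 arrays in MDA-MB-361 (mean -0.29 ± 0.09, adjusted p = 0.0426), T-47D (-0.24 ± 0.09, adjusted p = 0.0891) and ZR-75-30 (-0.34 ± 0.09, adjusted p = 0.0179). The third probe (chr21:42608600-42608659) gave -0.28 ± 0.09 in T-47D (adjusted p = 0.0506), but 0.07 ± 0.09 in ZR-75-30 (adjusted p = 0.751) and 0.02 ± 0.09 in MDA-MB-361 (adjusted p = 0.985). The probes of TFF3 thus disagreed in ZR-75-30, where the third probe was above 0 on 3 of 6 arrays. In T-47D all 3 probes were lowest at 24 h, at -0.53, -0.39 and -0.68.

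TFF1, on the same stretch of chromosome 21, had log ratios of 0.07, 0.57, 0.98, 0.33, -0.30 and 0.88 in ZR-75-30 from 30 min to 24 h. They were above 0 on 5 of 6 arrays, and by the mean of 0.42 ± 0.11 (adjusted p = 0.0208) TFF1 rose by 33.9%. The vehicle levels behind these ratios were 17.63, 16.65, 16.23, 17.50, 17.81 and 16.77, and the BMP7 channel lay between 17.20 and 17.82. The 3 highest ratios (1, 3 and 24 h) thus came from the 3 lowest vehicle levels, and the negative ratio (12 h) from the highest; the part of the vehicle level in the call was not tested. The second TFF1 probe gave a mean of 0.14 ± 0.08 in this line, above 0 on 4 of 6 arrays (adjusted p = 0.295). In T-47D the brightest probe was below 0 on every array (-0.18 ± 0.11, adjusted p = 0.362). In HCC1954 the second probe was above 0 on 6 of 6 arrays (0.28 ± 0.08, adjusted p = 0.0505) and the brightest on 3 (0.01 ± 0.11). In MDA-MB-231 the ratio was between -0.25 and 0.01 up to 12 h and 0.60 at 24 h, the array with the lowest TFF1 level, and the second probe gave 0.19 at 24 h. The TFF1 call in ZR-75-30 was lost without the 1 h, 3 h, 6 h or 24 h arrays, at means between 0.31 and 0.44. With normexp background correction the mean was 0.70 with loess and 1.09 with median scaling, both past the threshold, and with the mean of the probes it was 0.28 (adjusted p = 0.0361345).

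FOXA1 in ZR-75-30 had log ratios of -0.01, -0.26, -0.22, -0.83, -0.27 and -0.18, each of them below 0, and their mean was -0.29 ± 0.09 (adjusted p = 0.0382), by which FOXA1 fell by 18.4%. The second FOXA1 probe was also below 0 on 6 of 6 arrays, from -1.47 at 6 h to -0.22 at 3 h, its mean being -0.48 ± 0.11 (adjusted p = 0.00713). The 6 h array was the lowest with both probes, and it belongs to the second scan batch. Without it the mean of the brightest probe was -0.19 (adjusted p = 0.271136), and in the first scan batch alone it was -0.23 (adjusted p = 0.187672). The call was also lost with scan batch as a term (-0.29, adjusted p = 0.0745858), with slide as a block (adjusted p = 0.054202), with time as a block (adjusted p = 0.0528749), without the 1, 3 or 12 h arrays (-0.30 to -0.31) and with median scaling (-0.14, adjusted p = 0.984612). In T-47D FOXA1 was above 0 on 6 of 6 arrays, by 0.11 ± 0.09 (adjusted p = 0.52).

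**Figure D5:**
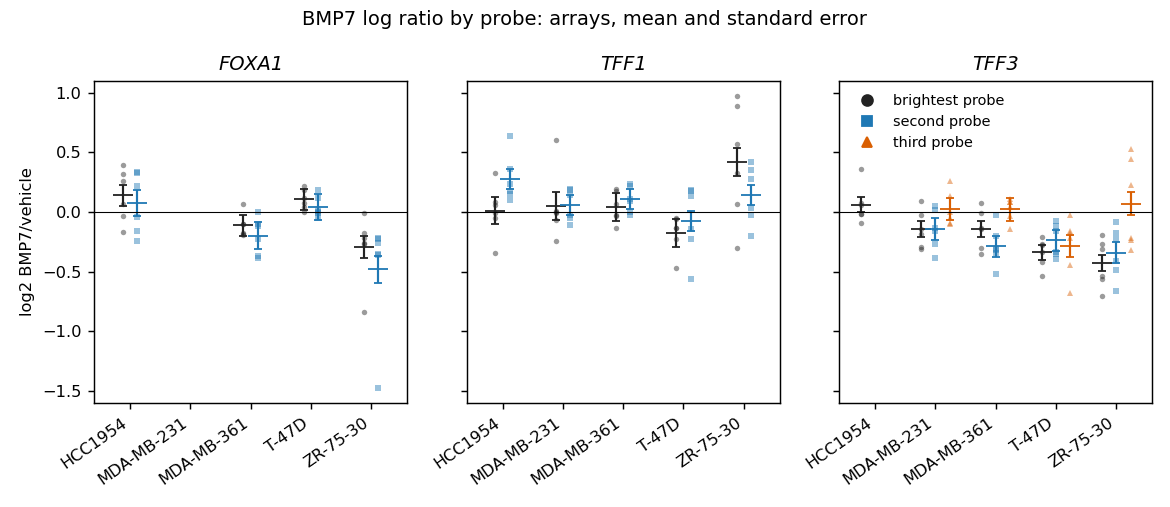
Log2 ratio of BMP7 to vehicle (y axis) for each probe of FOXA1, TFF1 and TFF3 in the lines (x axis) where that probe is expressed; symbols are the 6 arrays and bars the mean ± SE from limma. Both FOXA1 probes are below 0 in ZR-75-30 (means -0.29 and -0.48), and for TFF3 the brightest and second probes are below 0 in ZR-75-30 (-0.43 and -0.34) while the third is not (0.07).

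ESR1 was below 0 on 6 of 6 arrays in MDA-MB-361, between -0.28 and -0.07, and the mean of -0.16 ± 0.05 missed the threshold (adjusted p = 0.0557). Its mean was 0.12 ± 0.05 in HCC1954 (adjusted p = 0.195), 0.07 ± 0.05 in T-47D (adjusted p = 0.44) and 0.04 ± 0.05 in ZR-75-30 (adjusted p = 0.716). The second ESR1 probe gave 0.07 ± 0.10 in MDA-MB-361 and -0.24 ± 0.10 in T-47D (adjusted p = 0.759 and 0.108), so the probes of ESR1 differed in sign in both lines. MDA-MB-361 was also the line in which MYB (-0.37 ± 0.15, adjusted p = 0.121), PGR (-0.30 ± 0.14, adjusted p = 0.153) and GREB1 (-0.16 ± 0.08, adjusted p = 0.221) were each below 0 on 6 of 6 arrays without passing the threshold. The second GREB1 probe gave 0.18 ± 0.12 there and -0.32 ± 0.12 in T-47D (adjusted p = 0.357 and 0.0839). The median of the 9 genes in MDA-MB-361 was -0.14, beside -0.0037 for all probes expressed there. Of these genes 3 had a mean above 0 and 6 below, and their median size was 0.157, beside 0.130 for those probes. The other medians, each over the genes a line expressed, lay on both sides of 0. MDA-MB-231 had -0.106, while T-47D (0.030), ZR-75-30 (0.056) and HCC1954 (0.063) had positive values. In T-47D, where PGR was bright, its mean was -0.10 ± 0.14 (adjusted p = 0.738).

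SPDEF was below 0 on 6 of 6 arrays in HCC1954 (-0.24 ± 0.08, adjusted p = 0.0956) and above 0 on 6 of 6 in MDA-MB-361 (0.16 ± 0.08, adjusted p = 0.245). AGR2 was below 0 on 6 of 6 arrays in ZR-75-30 (-0.14 ± 0.06, adjusted p = 0.13) and between -0.17 and 0.11 in the means of the other lines. In MDA-MB-231, AGR2 rests on 5 arrays, since its spot at 6 h was marked as an outlier and left out.

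A constant dye effect of a probe cancels when lines are compared with each other. Of 66 tests of a gene between pairs of lines that both express it, 5 passed, beside 3.29% of all probes and pairs, and 26 had an unadjusted p under 0.05. The pairs with calls had 0.183% (HCC1954 and ZR-75-30), 9.51% (T-47D and ZR-75-30) and 9.55% (HCC1954 and MDA-MB-361) of all probes called. The TFF3 ratio was 0.49 ± 0.09 (SE) higher in HCC1954 than in ZR-75-30 (adjusted p = 0.0208). The TFF1 ratio was 0.60 ± 0.16 lower in T-47D than in ZR-75-30, a difference of -0.60 (adjusted p = 0.0231), and the FOXA1 ratio 0.40 ± 0.13 higher (adjusted p = 0.0468, and 0.0621592 with time as a block). Between HCC1954 and MDA-MB-361, the ESR1 ratio was 0.28 ± 0.08 higher in HCC1954 (adjusted p = 0.023) and the SPDEF ratio differed by -0.40 ± 0.12 (adjusted p = 0.0373). The ESR1 difference rests on the brightest probe. The second ESR1 probe gave 0.04 ± 0.10 in HCC1954 and 0.07 ± 0.10 in MDA-MB-361. Without the 3 h or the 24 h arrays 0 of the 66 passed, without the 12 h arrays 1, and without the 1 h or the 6 h arrays 2. With normexp background correction and loess 12 passed, and with median scaling in place of loess 0 passed, with the ESR1 difference turned to -0.13.

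Averaged over the 5 lines, 0 of the 9 genes passed for the mean log ratio, beside 0.00976% of all probes. TFF3, at -0.20 ± 0.08 and below 0 in 4 of 5 lines, was the only gene with an unadjusted p under 0.05 (adjusted p = 0.324, limma). PGR was at -0.08 ± 0.05 and TFF1 at 0.07 ± 0.09.

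The third comparison asks whether the ratio changed from the early arrays (30 min and 1 h) to the late ones (3, 6, 12 and 24 h), where a constant dye effect also cancels. Within lines, 0 of the 38 combinations passed, beside 0.987% of all probes over the lines, and 3 had an unadjusted p under 0.05. These were SPDEF in T-47D (0.33 ± 0.15, adjusted p = 0.334) and ZR-75-30 (0.40 ± 0.15, adjusted p = 0.146) and TFF3 in ZR-75-30 (-0.30 ± 0.14, adjusted p = 0.244). Averaged over the lines, 0 of 9 passed, beside 4.1% of all probes. SPDEF came nearest, with a late minus early difference of 0.22 ± 0.07 that was above 0 in 5 of 5 lines (adjusted p = 0.0754). It passed with 12 and 24 h alone as late (0.27, adjusted p = 0.0353) and when spots not well above background were left out (adjusted p = 0.0461), and its sign turned with median scaling in place of loess (-0.07, adjusted p = 0.697). In T-47D the SPDEF ratio was -0.14, -0.38 and -0.41 up to 3 h and 0.18, 0.21 and 0.32 from 6 h on. A test of whether the late minus early difference varied between lines called 0 of 9 genes, with 0 at an unadjusted p under 0.05, beside 0.0537% of all probes.

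Among the lists of related genes, a minority of the members passed in each line. Of the estrogen-regulated genes expressed, 3 of 25 passed in HCC1954, 2 of 26 in MDA-MB-231, 2 of 26 in MDA-MB-361 and 3 of 28 in T-47D, with 1 of 28 in ZR-75-30. In the order of these lines, the background was 5.35%, 1.99%, 9.91%, 11.5% and 9.84% of all probes, and 6.93%, 2.32%, 12.6%, 16.3% and 13.4% of the probes expressed in the line. RERG, a RAS-related inhibitor of growth, was higher after BMP7 in HCC1954 (0.28 ± 0.07), MDA-MB-231 (0.39 ± 0.07) and T-47D (0.35 ± 0.07). It was below 0 without passing in MDA-MB-361 (-0.09 ± 0.07, adjusted p = 0.490) and ZR-75-30 (-0.18 ± 0.07, adjusted p = 0.106). Its mean over the lines was 0.15 (adjusted p = 0.563), and its late ratios lay below its early ones over the lines (-0.20 ± 0.05, adjusted p = 0.0423). XBP1, a factor of the unfolded protein response and of luminal cells that is on both lists, was lower in MDA-MB-231 (-0.38 ± 0.09, adjusted p = 0.0155) and ZR-75-30 (-0.40 ± 0.09, adjusted p = 0.004). In T-47D the adaptor gene IRS1 rose by 0.38 ± 0.08 (adjusted p = 0.00405).

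Of the luminal identity genes expressed, 3 of 20 passed in HCC1954, 2 of 16 in MDA-MB-231, 5 of 22 in MDA-MB-361 and 4 of 22 in T-47D, with 2 of 22 in ZR-75-30. In the same order, 6.93%, 2.32%, 12.6%, 16.3% and 13.4% of the probes expressed in the line passed. ELF5, an ETS factor of secretory cells, was higher in ZR-75-30 by 1.40 ± 0.16 (adjusted p = 3.06895e-05), in MDA-MB-231 by 0.92 ± 0.20 (adjusted p = 0.0157) and in MDA-MB-361 by 0.83 ± 0.20 (adjusted p = 0.0133), the last 2 over the 4 arrays whose spot was not marked as an outlier. Its mean was also above 0 in HCC1954 (0.66 ± 0.20, adjusted p = 0.0598) and T-47D (0.25 ± 0.16, adjusted p = 0.364). Late minus early over the lines, where a constant dye effect cancels, ELF5 changed by 0.28 ± 0.19 (adjusted p = 0.467). The part of a dye effect in its means was not tested. The keratin gene KRT8 was lower in HCC1954 (-0.32 ± 0.08, adjusted p = 0.0168) and T-47D (-0.30 ± 0.08, adjusted p = 0.0132). Among the receptor cofactors and relatives, the corepressor NCOR1 was 0.11 ± 0.04 in MDA-MB-361 and -0.12 ± 0.04 in T-47D, and PGRMC1 was -0.34 ± 0.11 in MDA-MB-361, each past the threshold. In late against early ratios within ZR-75-30, CLDN4 (0.67) passed above 0, and CXCL12 (-0.43), RERG (-0.44) and PGRMC1 (-0.77) passed below it. In this line 2.51% of all probes passed above 0 and 1.73% below it. The line had the most calls in this comparison, 4.24% of all probes, against 0.0146% in HCC1954 to 0.598% in T-47D.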

How the data were processed

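The 9 genes, the lists of related genes and the markers were chosen with earlier results of these data known. Per the file headers, the Feature Extraction software 9.5.1.1 corrected the intensities of both channels for background and normalized the dyes, and the log10 ratios deposited by the authors come from it. A matrix of log2 ratios per array was also deposited by the authors. The log10 values were rescaled to log2 after removal of control spots and of the 0.638% of spots marked as outliers. Repeated spots were averaged per probe, and array medians were set to 0, which they were already. Vehicle levels are log2 processed Cy3 intensities after Aquantile normalization between arrays. The number of arrays limits the precision.

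Genes were read from the probe with the highest mean vehicle level, with other probes beside it. The most alike genes were ranked among probes well above background on at least 6 arrays. From each list at most 4 genes per comparison were named, each past the threshold on a probe above background in both channels. The genes named are not always those with the largest change of their list. Gene names are those of the array, with ESRP1, EPCAM and TP63 found by RefSeq accession. CARM1 and GPER had no matching probe. Probe positions are those of the files (hg18). Tests used limma 3.58.1 in R 4.3.3 with Benjamini-Hochberg adjustment over all probes of a contrast and a threshold of 0.05, in 1 fit of 30 arrays (5 line means for the mean over lines). Fits were tested on simulated data. Alternatives were 75th percentile scaling, normexp (offset 50) with loess or median scaling, the deposited log2 matrix, no median shift, filters on dim spots, outlier-marked spots kept, the mean of all probes, slide as a random block, scan batch as a term, other early and late times, and leaving out each line or time. Leaving out single arrays that stood apart, using the first scan batch alone, and time as a block, were chosen after the data had been seen. Figures were drawn with matplotlib 3.10.9. Some members of the lists of related genes are not reported here by name.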

Additional observations from a re-analysis of the deposited data

Results flagged for a closer look

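In 38 groups of levels and 38 of log ratios (the 6 arrays of a line, 5 for AGR2 in MDA-MB-231), 11 had 1 array far from the others by Dixon's criterion, which flags about 1 group in 20 by chance. Among vehicle levels (log2), AGR2 was highest in HCC1954 at 1 h (12.00, others 9.78 to 10.14) and TFF3 in ZR-75-30 at 6 h (14.06, others 12.91 to 13.32). SPDEF was highest in MDA-MB-231 at 6 h (8.89, others 7.69 to 8.05). MYB was lowest in ZR-75-30 at 6 h (11.44, others 12.09 to 12.35), FOXA1 in ZR-75-30 at 30 min (14.35, others 14.81 to 15.01) and TFF1 in T-47D at 24 h (12.94, others 13.73 to 13.90). The arrays of ZR-75-30 at 30 min and 6 h and of MDA-MB-231 at 6 h were among the 6 of the second scan batch; the part of the batch was not tested.

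Among log ratios, FOXA1 was lowest in ZR-75-30 at 6 h (-0.83, others -0.27 to -0.01) and AGR2 in T-47D at 24 h (-0.22, others 0.01 to 0.14). TFF1 was highest in MDA-MB-231 at 24 h (0.60, others -0.25 to 0.01), TFF3 in HCC1954 at 6 h (0.36, others -0.09 to 0.07) and FOXA1 in MDA-MB-361 at 30 min (0.070, others -0.19 to -0.10).

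The BMP7 log ratio of the brightest probe differed between 2 lines, by the limma contrast of the lines, for 5 pairs. For ESR1 (0.28) and SPDEF (-0.40) the pair was HCC1954 minus MDA-MB-361, for FOXA1 (0.40) and TFF1 (-0.60) it was T-47D minus ZR-75-30, and for TFF3 (0.49) it was HCC1954 minus ZR-75-30.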

How the results depend on the processing

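BMP7 and vehicle were paired within each array, and time was tried as a block. The labels carry no replicate numbers and there was 1 array for each line and time, so arrays could be matched with each other by time only. The number of vehicle tests past the threshold (81 of 90) stayed between 78 and 83 under the alternatives that kept all 90 tests, 78 to 81 when a time was left out, and was 70 of 73 when spots not well above background were left out. With time as a block it was 82, the mean log ratio had 3 calls in place of 4 (FOXA1 in ZR-75-30 lost) and the comparison between lines 6 in place of 5, of which 4 were shared. With the mean of all probes, the MDA-MB-361 minus T-47D difference turned to -0.015 for ESR1 and -0.45 for GREB1. The 4 calls of the mean log ratio kept their direction in 84 of 84 checks and their call in 67; the count was 2 to 4 without single times, and 3 to 5 under the other alternatives. Between lines, the 5 calls became 3 with the mean of all probes, 12 with normexp and loess, 0 with normexp and median scaling (ESR1, HCC1954 minus MDA-MB-361, at -0.13), 3 with the deposited matrix and 0 to 4 without single times. The late against early count within lines was 0 and became 1 (SPDEF in T-47D) with 12 and 24 h as late and in the first scan batch alone, and was 0 to 1 without single times. Over the lines it was 0 and became 1 (SPDEF) with spots well above background in both channels, in at least 1 channel, and with 12 and 24 h as late. The mean over lines was 0 and became 1 (TFF1, 0.43) with normexp and median scaling. In other alternatives these counts, the F-test and the vehicle course were within 1.5 times the reported ones or stayed at 0. The cause of these differences was not tested. Before centring, the array medians lay between -1.13 and 1.05 with median scaling.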
